A study of Mus musculus with 4 samples.

Results

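The 10 genes described here encode epithelial transcription factors and splicing regulators: Esrp1 and Esrp2, the grainyhead-like factors Grhl1, Grhl2 and Grhl3, the ovo-like factors Ovol1 and Ovol2, the epithelial Ets factors Elf3 and Ehf, and Klf5. They were chosen by name, as 10 of the 21631 protein-coding genes on the mouse autosomes and X, and not by a rule on measured values. Earlier results of these data were known when they were chosen, so the choice was not blind to the data. Chromatin accessibility had been profiled by ATAC-seq, in which a transposase inserts sequencing adapters into open DNA, in endothelial cells isolated by FACS from retinas of C57BL/6 mice labelled P16. Of the 4 libraries, 2 came from mice with the genotype control and 2 from mice with the genotype Zeb1 knockdown, titled Zeb1-CKO, with 2000 sorted cells per library. The sources used here do not say which promoter drove a recombinase, nor whether libraries of the same group stem from different animals. Any p-value therefore measures the spread between libraries, which may be technical.

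Zeb1 is a zinc-finger repressor that binds E-boxes in epithelial genes and is best known for its part in the epithelial-mesenchymal transition. Grainyhead-like and ovo-like factors hold cells in an epithelial state, and members of both families are known to act in mutual repression with Zeb1. Esrp1 and Esrp2 are RNA-binding proteins that direct epithelial patterns of alternative splicing, and Elf3, Ehf and Klf5 are transcription factors of epithelial differentiation.

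For each library the authors deposited a list of peaks on mm10, and a gene was counted as held by a library when a listed peak overlapped its window by at least 1 bp. The gene-end window took in 1 kb on each side of either end of the gene, and the wide window the gene body with 10 kb on each side. A gene is called knockdown-only when both knockdown libraries hold it and neither control does. The lists are of unequal length, 7608 and 13672 peaks in control libraries 1 and 2 and 13689 and 19886 peaks in knockdown libraries 1 and 2. Read depth is unknown, so a gene with no listed peak is not shown to be closed. At Zeb1 itself, 0 gene-end peaks were listed in control 1 and 1 in each of the other libraries, which does not check the genotype labels.

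Gene-end peaks of these regulators were listed more often in the knockdown libraries. Control 1 held 1 of the 10 genes and control 2 held 4, while knockdown 1 held 6 and knockdown 2 held 8. Among all protein-coding genes the shares rose in the same order, 22.0%, 38.5%, 39.5% and 45.2%. Esrp1 and Grhl2 were knockdown-only, Grhl1 was held by all 4 libraries, and Esrp2, Elf3 and Klf5 by every library except control 1. Grhl3 and Ovol1 were held by knockdown 2 alone. Ovol2 and Ehf had no gene-end peak in any library.

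**Figure D1:**
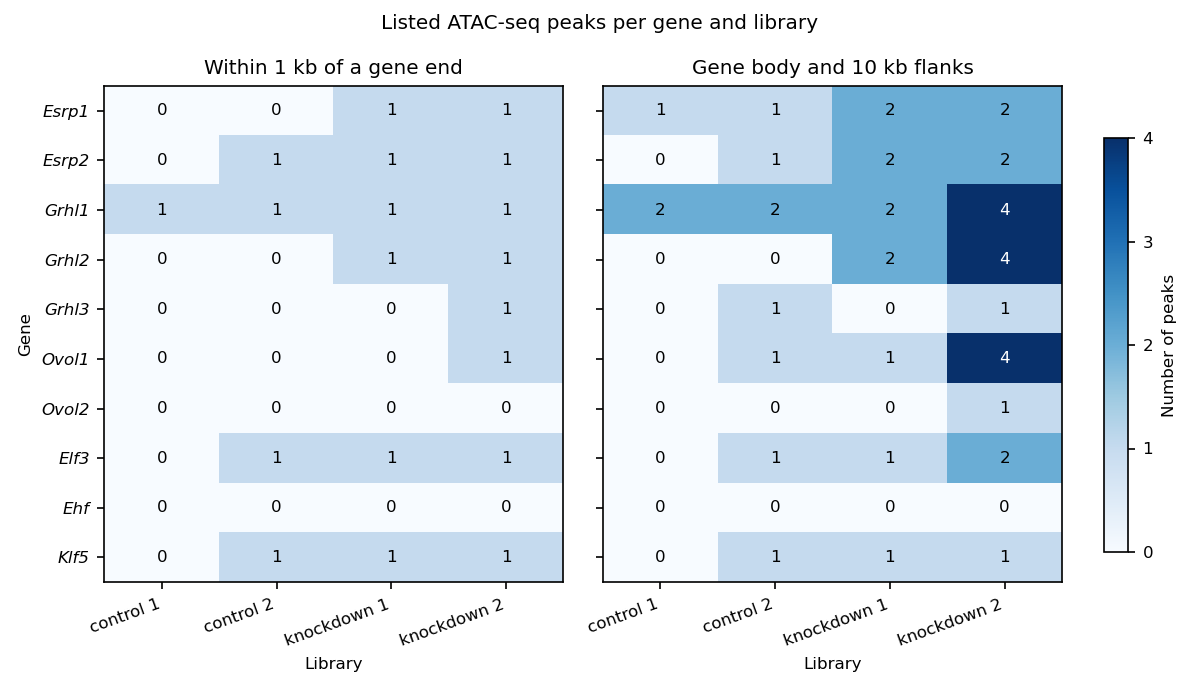
Number of listed peaks for each gene (rows) in each library (columns), within 1 kb of a gene end (left) and over the gene body with 10 kb flanks (right), with the count printed in each cell. Grhl1 is filled in all 4 columns on the left, Esrp1 and Grhl2 only in the knockdown columns, and Ehf is at 0 throughout.

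A promoter sequence was found for 4 of the 10 genes, namely Elf3, Grhl3, Ovol2 and Grhl1, in a RefSeq table on GRCm38.p6, the assembly behind mm10. These are shown because they place the peaks against a known start site and can be read for the E2-box CACCTG, a sequence that Zeb1 is known to bind. Each runs 5′ to 3′ on the gene's own strand, from 250 bases before the start site to 50 from it on, with every E2-box in either orientation in capitals. Elf3 is at chr1:135258423-135258722 on the minus strand, Grhl3 at chr4:135573583-135573882 on the minus strand, Ovol2 at chr2:144331313-144331612 on the minus strand, and the first of the 2 Grhl1 promoters at chr12:24572037-24572336 on the plus strand.
Elf3: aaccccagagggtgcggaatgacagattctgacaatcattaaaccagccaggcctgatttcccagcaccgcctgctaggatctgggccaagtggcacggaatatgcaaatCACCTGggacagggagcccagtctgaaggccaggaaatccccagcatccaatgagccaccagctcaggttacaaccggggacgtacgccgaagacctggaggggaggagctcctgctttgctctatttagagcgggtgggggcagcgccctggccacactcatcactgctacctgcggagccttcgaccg
Grhl3: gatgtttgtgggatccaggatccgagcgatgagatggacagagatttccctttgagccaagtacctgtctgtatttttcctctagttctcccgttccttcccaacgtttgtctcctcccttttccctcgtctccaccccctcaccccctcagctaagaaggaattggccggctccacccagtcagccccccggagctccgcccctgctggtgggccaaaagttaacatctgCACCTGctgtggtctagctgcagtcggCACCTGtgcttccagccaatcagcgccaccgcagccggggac
Ovol2: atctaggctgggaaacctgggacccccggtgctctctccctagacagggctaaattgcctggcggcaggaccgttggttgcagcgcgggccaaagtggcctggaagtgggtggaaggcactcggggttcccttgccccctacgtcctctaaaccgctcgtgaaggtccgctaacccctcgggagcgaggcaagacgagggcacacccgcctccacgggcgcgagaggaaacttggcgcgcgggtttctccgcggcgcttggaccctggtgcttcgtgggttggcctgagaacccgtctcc
Grhl1: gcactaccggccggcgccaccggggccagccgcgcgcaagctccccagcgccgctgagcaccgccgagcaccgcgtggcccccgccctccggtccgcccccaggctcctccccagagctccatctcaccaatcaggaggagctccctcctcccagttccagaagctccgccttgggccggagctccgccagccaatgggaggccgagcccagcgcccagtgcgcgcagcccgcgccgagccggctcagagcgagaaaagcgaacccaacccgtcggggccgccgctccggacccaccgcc

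The Elf3 promoter holds 1 E2-box, whose first base lies 140 bases before the start site. The Grhl3 promoter holds 2, which begin 19 bases before and 8 bases after the start site. Ovol2 and both Grhl1 promoters hold 0. Over all 32619 promoter sequences of the table on the same chromosomes, 20.3% hold at least 1 E2-box and 2.9% hold 2 or more. The grainyhead-like palindrome AACCGGTT, searched the same way, was in none of the 5 member promoters and in 0.147% of all promoters. A match describes these letters and shows no binding, and no match says only that the letters are absent from this window.

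Esrp1, the first of the epithelial splicing regulators, spans chromosome 4 from 11331933 to 11386783. Its high-coordinate end carried 1 peak in each knockdown library and 0 in each control. In knockdown 1 the peak ran from 11386666 to 11386984, with a −log10 q of 2.86, at percentile 72.6 counted from the strongest peak of that list. In knockdown 2 it ran from 11386731 to 11387053, with a −log10 q of 3.18, at percentile 64.8. Both peaks lie across the gene end and share 254 bp. All 4 libraries also held a region from 11321908 to 11322491 at the far edge of the wide window, which lies within 1 kb of an end of the neighbouring gene Dpy19l4. That shared peak is why Esrp1 counts as knockdown-only at its gene end and not over the wide window.

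Esrp2, its paralogue, spans chromosome 8 from 106130319 to 106137193 and held 2 peaks in each knockdown library, 1 in control 2 and 0 in control 1. The knockdown libraries shared 2 regions inside the gene. The first, near its high-coordinate end, was listed from 106136728 to 106137157 in knockdown 1, at percentile 50.1, and from 106136797 to 106137142 in knockdown 2, at percentile 38.3. The second, further into the gene, was at percentile 94.0 in knockdown 1 and 23.5 in knockdown 2. Neither region had a peak in a control list. The single peak of control 2 began 930 bp beyond the gene end, at 106138123, and overlapped no knockdown peak. Esrp2 is therefore not knockdown-only as a gene, although both regions inside it were listed only in the knockdown libraries. A long noncoding gene, 1810019D21Rik, overlaps this end of Esrp2, and accessibility there cannot be assigned to either gene.

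Grhl1, a grainyhead-like factor of epidermal differentiation, was the only member with a gene-end peak in all 4 libraries. It spans chromosome 12 from 24572232 to 24617391. The peak at its start ranked at percentile 6.02 in control 1, 5.90 in control 2, 8.69 in knockdown 1 and 3.96 in knockdown 2. It covered all 300 bases of the first printed promoter in each library. Its width was 380 and 354 bp in controls 1 and 2 and 643 and 613 bp in knockdown 1 and 2, and the wider peaks reached further into the gene. A second peak within the gene, at 24593186 to 24593811 after merging, was also listed in all 4, at percentiles from 23.6 in knockdown 2 to 43.9 in control 1. The Grhl1 peaks were the same in number in both groups, apart from 2 further peaks listed in knockdown 2 alone, at percentiles 56.6 and 99.4.

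Grhl2, known as an activator of epithelial junction genes, was the only member that was knockdown-only in both windows. It is the longest of the 10, on chromosome 15 from 37232821 to 37363569. The controls held 0 peaks each over the gene and its flanks, knockdown 1 held 2 and knockdown 2 held 4. The nearest peak lay 225112 bp away in control 1 and 225173 bp away in control 2. Both knockdown libraries held a peak that begins 89 or 100 bp inside the low-coordinate end, at percentiles 77.6 and 82.5. A second shared peak begins 1621 or 1619 bp inside the same end, at percentiles 63.5 and 76.7. All 4 of these peaks stood in the weaker part of their lists. The long noncoding gene Gm16136 overlaps the same end.

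Grhl3, the grainyhead-like factor known for its roles in skin barrier formation and neural tube closure, had a gene-end peak in knockdown 2 alone. It spans chromosome 4 from 135541887 to 135573632. The peak ran from 135573361 to 135573688 across the start site, at percentile 67.7, and contains both E2-boxes of the promoter printed above. Control 2 held 1 peak elsewhere in the gene, from 135548802 to 135549065, and control 1 and knockdown 1 held 0. The groups overlap at Grhl3, since knockdown 1 had no peak there.

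Of the ovo-like zinc-finger repressors, Ovol1 had a gene-end peak in knockdown 2 alone, and Ovol2 had none. Ovol1 spans chromosome 19 from 5549137 to 5560575. Its gene-end peak, at percentile 30.9, ran from 5560588 to 5560963 and lies within 1 kb of an end of Ap5b1 as well, so it cannot be assigned to one of the 2 genes. A broad region 6852 to 7070 bp beyond the gene, inside Ap5b1, was listed in control 2, knockdown 1 and knockdown 2, at percentiles 89.7, 53.9 and 44.2. In all, the wide window of Ovol1 held 0, 1, 1 and 4 peaks in control 1, control 2, knockdown 1 and knockdown 2.

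Ovol2 spans chromosome 2 from 144305175 to 144332080, and knockdown 2 held its only peak, from 144330493 to 144330780, at percentile 80.0. That peak lay 582 bp from the start site of the printed promoter and covered none of its bases. In control 2 and knockdown 1 the nearest peaks were 34161 and 34045 bp from the gene.

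Elf3, an epithelial Ets factor, spans chromosome 1 from 135253574 to 135258472 and was held at its high-coordinate end, the start site, by control 2 and both knockdown libraries. The peak ran from 135258406 to 135258681 in knockdown 1, at percentile 62.6, and from 135258353 to 135258724 in knockdown 2, at percentile 11.4. In control 2 it ran from 135258636 to 135259415, at percentile 91.9, and began 164 bp upstream of the start site. The 3 peaks merge into 1 region but differ in placement. Of the 300 promoter bases printed above, peaks covered 0 in control 1, 87 in control 2, 259 in knockdown 1 and 300 in knockdown 2. The E2-box, at 135258607 to 135258612, lies inside the peaks of both knockdown libraries and outside the peak of control 2.

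Ehf, the other epithelial Ets factor, spans chromosome 2 from 103263431 to 103303275 and held 0 peaks in every library over the gene and its flanks. The nearest listed peaks lay from 69300 bp away in control 2 to 181532 bp away in knockdown 1. Ehf was the only member with no peak in any list.

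Klf5, a Kruppel-like factor of proliferating epithelia that is also active in vascular smooth muscle, spans chromosome 14 from 99298691 to 99313412. Its low-coordinate end held a strong peak in control 2, knockdown 1 and knockdown 2, at percentiles 9.14, 13.7 and 20.8, and none in control 1. The peak was 335 bp wide in control 2 and 924 and 975 bp wide in the knockdown libraries, where it reached further into the gene, as at Grhl1. Median widths over whole lists were 387 bp in control 1, 343 bp in control 2, 445 bp in knockdown 1 and 384 bp in knockdown 2. Peak width depends on depth and on the caller's settings, and neither difference in width was tested.

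**Figure D2:**
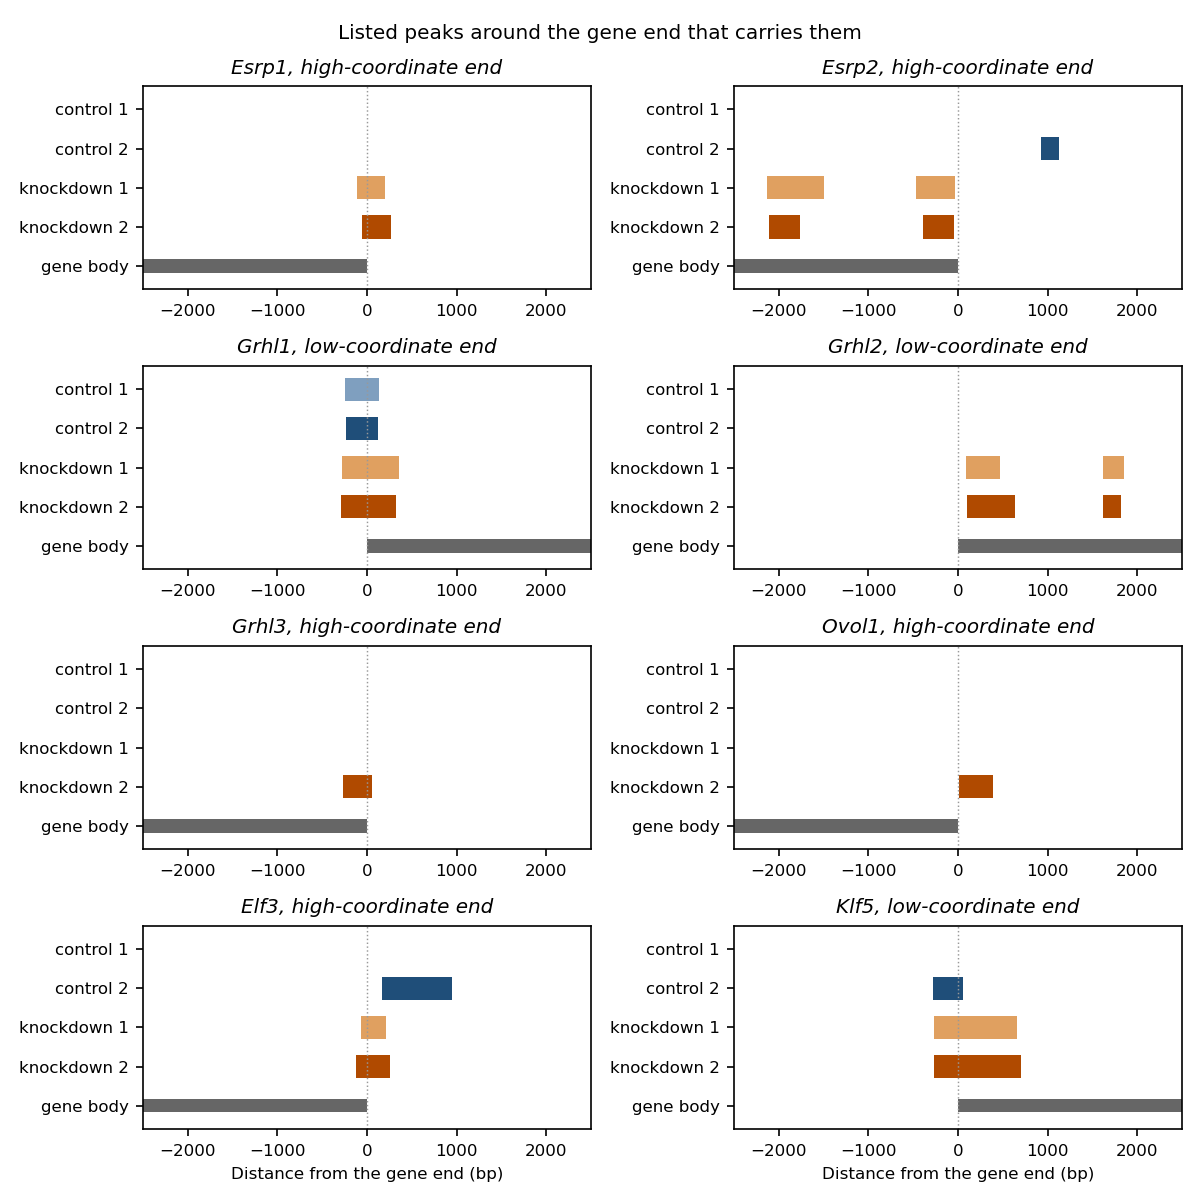
Listed peaks (coloured bars, 1 row per library) and the gene body (grey bar) within 2500 bp of the gene end that carries a peak, for the 8 genes with a gene-end peak, with distance from that end in bp on the horizontal axis. The knockdown peaks coincide at Esrp1, Esrp2, Grhl2 and Elf3, the peak of control 2 lies apart from them at Esrp2 and is displaced at Elf3, and Grhl1 has a peak across the gene end in all 4 rows, wider in the knockdown libraries.

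Ranked within their own lists, the gene-end peaks ranged from strong to weak. Those of Grhl1 and Klf5 stood between percentiles 3.96 and 20.8 in every library that held them. Those of the 2 knockdown-only genes, Esrp1 and Grhl2, stood between percentiles 64.8 and 82.5. Esrp2 and Ovol1 lay between these, apart from the Esrp2 peak of control 2 at percentile 80.2, Grhl3 stood at percentile 67.7, and Elf3 spanned percentiles 11.4 to 91.9. The median over gene-end peaks was percentile 56.4 in knockdown 1 (6 peaks), 34.6 in knockdown 2 (8 peaks) and 44.7 in control 2 (4 peaks). Control 1 held a single one. Of all 43 peaks listed in the wide windows of the 10 genes, 24 were in the weaker 50% of their list.

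**Figure D3:**
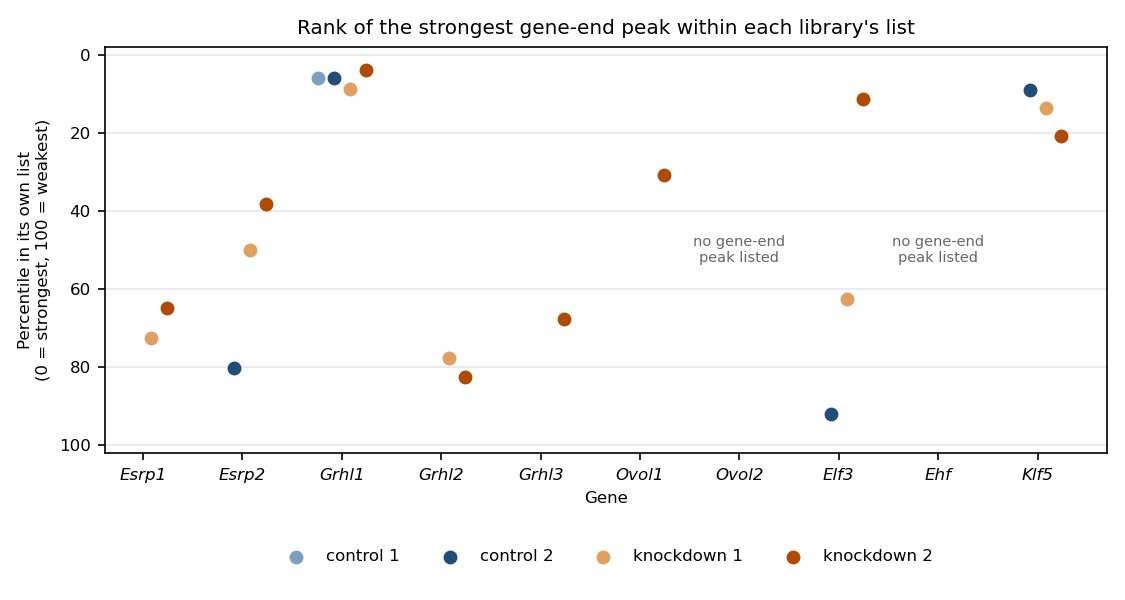
Percentile of the strongest gene-end peak of each gene within its library's own list, by −log10 q, with 0 at the top as the strongest and 1 point per library that held the gene. Grhl1 and Klf5 lie near the top in both groups, and Esrp1 and Grhl2 have points for the knockdown libraries only, in the lower part.

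In the comparison of the groups, the number of genes with a gene-end peak averaged 2.50 ± 2.12 (SD, n = 2) in the controls and 7 ± 1.41 (SD, n = 2) in the knockdown libraries. The groups did not overlap, but no smaller p than 0.333 can come from 2 against 2 libraries, and the exact permutation test (two-sided) gave p = 0.333. When every list was shortened to its 7608 strongest peaks, the libraries held 1, 2, 3 and 4 of the genes, and the mean difference fell from 4.50 to 2 genes. The shares of all genes were not counted on the shortened lists. The lists themselves differ in the same order. Of all protein-coding genes, control 1, control 2, knockdown 1 and knockdown 2 held 22.0%, 38.5%, 39.5% and 45.2% at a gene end, against 10%, 40%, 60% and 80% of the 10 regulators. The regulators thus stood below the share of all genes in control 1, close to it in control 2 and above it in both knockdown libraries.

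**Figure D4:**
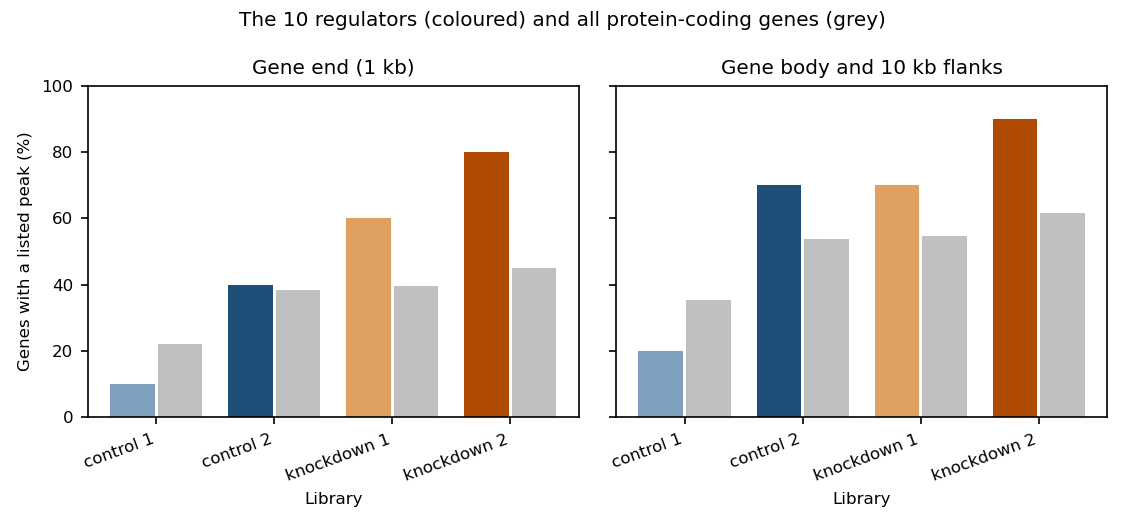
Percent of genes with a listed peak in each library, for the 10 regulators (coloured bars) and all 21631 protein-coding genes (grey bars), at gene ends (left) and over gene body with 10 kb flanks (right). At gene ends the regulators rise from 10% to 80% and all genes from 22.0% to 45.2% over the same libraries.

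Knockdown-only gene ends numbered 2 of the 10, Esrp1 and Grhl2, or 20%, against 3.80% of all protein-coding genes and 4.23% of those whose length lies between that of the shortest and the longest of the 10. Control-only gene ends numbered 0, against 0.0324% of all genes. The count of 2 stayed at 2 for peaks with a −log10 q of at least 3, but the genes were then Esrp2 and Elf3. The gene-end peaks of Grhl2 and 1 of those of Esrp1 are weaker than that. This filter left 3499 and 9573 peaks in controls 1 and 2, and 9583 and 13605 in knockdown 1 and 2. The share of all genes was not counted with this filter. The knockdown-only count was 0 when every list was shortened to its 7608 strongest peaks. Without control 2 it was 5, with Esrp2, Elf3 and Klf5 added, and without knockdown 1 it was 4, with Grhl3 and Ovol1 added. With a library left out, the share of all genes can also only rise or stay, and it was not counted. The pattern of Esrp2, Elf3 and Klf5, held by every library except control 1, is that of 12.6% of all genes.

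Over the gene body and 10 kb flanks the difference was smaller. Control 1 held 2 of the 10 genes, control 2 and knockdown 1 held 7 each and knockdown 2 held 9, against 35.4%, 53.9%, 54.6% and 61.7% of all genes. The groups overlap on this measure, with p = 0.667 by the two-sided exact permutation test. Grhl2 was the single knockdown-only gene, 10% of the 10 against 3.96% of all genes and 4.51% of those in the same length range. With equal list lengths Grhl2 was lost and Esrp2 and Ovol1 were called instead. No gene was control-only in this window, against 0.190% of all genes. The summed number of peaks in the 10 wide windows was 3 in control 1, 8 in control 2, 11 in knockdown 1 and 21 in knockdown 2, or 0.394, 0.585, 0.804 and 1.06 per 1000 listed peaks. The group means per 1000 listed peaks were 0.489 ± 0.135 and 0.932 ± 0.181 (SD, n = 2 each), with p = 0.333 by the same exact permutation test. With lists shortened to 7608 peaks, the sums were 3, 4, 6 and 7, and the mean difference in summed peaks fell from 10.5 to 3. Neither the sums nor the rates per 1000 listed peaks were counted over all genes. They are therefore not read as particular to the 10 genes.

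Control 2 and knockdown 1 have lists of almost the same length, but differ in other ways: of 10 photoreceptor markers, control 2 held 8 at a gene end and knockdown 1 held 0. At gene ends, Esrp1 and Grhl2 were held by knockdown 1 and not by control 2, 0 genes by control 2 alone of the pair, and 4 by both. Over the wide windows the pair differed by 1 gene in each direction, Grhl2 in knockdown 1 and Grhl3 in control 2. Among all 21631 protein-coding genes, 1164 were held at a gene end by knockdown 1 and not by control 2, 941 the reverse, and 7378 by both. Over the wide windows these numbers were 1238, 1093 and 10576.

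Merged across libraries, the peaks of the 10 genes formed 23 regions, in 9 of the genes. Of these, 5 regions were knockdown-only, 1 at Esrp1 and 2 each at Esrp2 and Grhl2. This is 21.7% of the 23, against 10.1% of all 25263 merged regions. Regions held by knockdown 2 alone numbered 10, those held by control 2 alone 2, and 3 were held by all 4 libraries. The shares of all merged regions with these patterns were not counted, and knockdown 2 has the longest list. These numbers are therefore not read as particular to the 10 genes. Leaving out control 2 raised the knockdown-only count to 8 and leaving out knockdown 1 raised it to 15. Leaving out a library can only raise or keep such a count, and the share of all regions was not counted under these settings. With lists shortened to 7608 peaks it was 0. With a −log10 q of at least 3 it was 3, 1 each at Esrp2, Ovol1 and Elf3, and those of Esrp1 and Grhl2 were lost. The share of all regions was not counted on these shortened or filtered lists either. The 2 regions of a gene share that gene and are not independent of each other.

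By their gene-end patterns, 6 of the 45 pairs of genes were alike in all 4 libraries. They join Esrp1 with Grhl2, Grhl3 with Ovol1, Ovol2 with Ehf, and Esrp2, Elf3 and Klf5 with one another. No pair from one gene family was among the 6, and the 3 grainyhead-like genes had 3 different patterns. A pair counted as alike in a library when both genes held or both lacked a gene-end peak. Ovol2 and Ehf were alike only in lacking one. Likeness over pairs of all genes was not counted.

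Other genes of the same pathway were read from 6 lists. Of 10 genes named as targets of grainyhead-like factors, control 1 held 0 at a gene end, control 2 held 1, knockdown 1 held 5 and knockdown 2 held 7. The shares of all protein-coding genes in these libraries were 22.0%, 38.5%, 39.5% and 45.2%. The knockdown-only ones among them numbered 4, namely Cldn4 (a claudin of tight junctions), Cdh1 (E-cadherin), Epcam (an adhesion molecule) and Spint1 (a protease inhibitor). Cldn4 peaks stood at percentiles 27.7 and 17.2 in knockdown 1 and 2, Cdh1 peaks at 46.0 and 73.5, Epcam peaks at 51.4 and 67.5, and Spint1 peaks at 54.9 and 76.8. Earlier results of these data had already shown these 4 with this pattern, so they are not independent support.

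The remaining lists held no such gene. Of 8 other epithelial transcription factors, knockdown 2 held 1 at a gene end and the other libraries 0. Of 7 family relatives, 4 had a gene-end peak in every library, the ubiquitous CP2 factors Ubp1 and Tfcp2, Klf4 and Ovol3, and 0 were knockdown-only. Of the 8 genes whose transcripts Esrp proteins are known to splice, control 1, control 2, knockdown 1 and knockdown 2 held 1, 5, 4 and 4 at a gene end, with Magi1 in all 4 libraries and 0 knockdown-only. Of 8 other splicing regulators matched in the gene table, the counts were 2, 5, 4 and 6, with Ptbp1 and Srsf1 in all 4 libraries and again 0 knockdown-only. The 7 endothelial Ets and Kruppel-like factors had 3, 4, 4 and 4, with Klf2, Etv6 and Elk3 in all 4 libraries and 0 knockdown-only. Over the 6 lists, 4 of 48 genes were knockdown-only (8.33%) and 0 control-only, against the 3.80% and 0.0324% of all genes given above. All 4 are the grainyhead-like targets already known from these data, so the 8.33% is not independent support either.

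Markers of cell types were counted in the same way. Of 10 endothelial markers, 3, 5, 5 and 5 had a gene-end peak in control 1, control 2, knockdown 1 and knockdown 2, with Cdh5, Cldn5 and Tie1 in all 4 libraries, and over the wide window 8, 10, 10 and 10. Of 10 surface epithelium markers, 1 had a gene-end peak, Sfn, in every library. Krt5, Krt12, Krt14, Krt15, Krt17, Dsg3, Dsc3 and Trp63 held 0 peaks over the gene and its flanks in all 4. The summed number of peaks over this list was 1 in each control and 3 in each knockdown library, the added peaks being those of Pkp1 and of Sfn. Of 8 pigment epithelium markers, 3, 3, 2 and 4 had a gene-end peak, with Rpe65, Tyr and Ttr at 0 in all windows.

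Photoreceptor markers followed the replicate number. Of the 10, control 1 and knockdown 1 held 0 at a gene end, control 2 held 8 and knockdown 2 held 7, and the summed number of peaks over the wide windows was 2, 22, 4 and 22. Knockdown 2, in which 10 of the 23 regulator regions were listed alone, has the longest list and is one of the libraries with these peaks. The part of the photoreceptor peaks in the regulator counts was not tested. Of glial markers 1 of 4 had a gene-end peak in every library, and of 5 mural and 5 leukocyte markers 0 did in any. Over the wide windows, summed peaks were 1, 1, 2 and 2 for the glial list, 0, 0, 0 and 2 for the mural list and 1, 2, 1 and 1 for the leukocyte list.

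**Figure D5:**
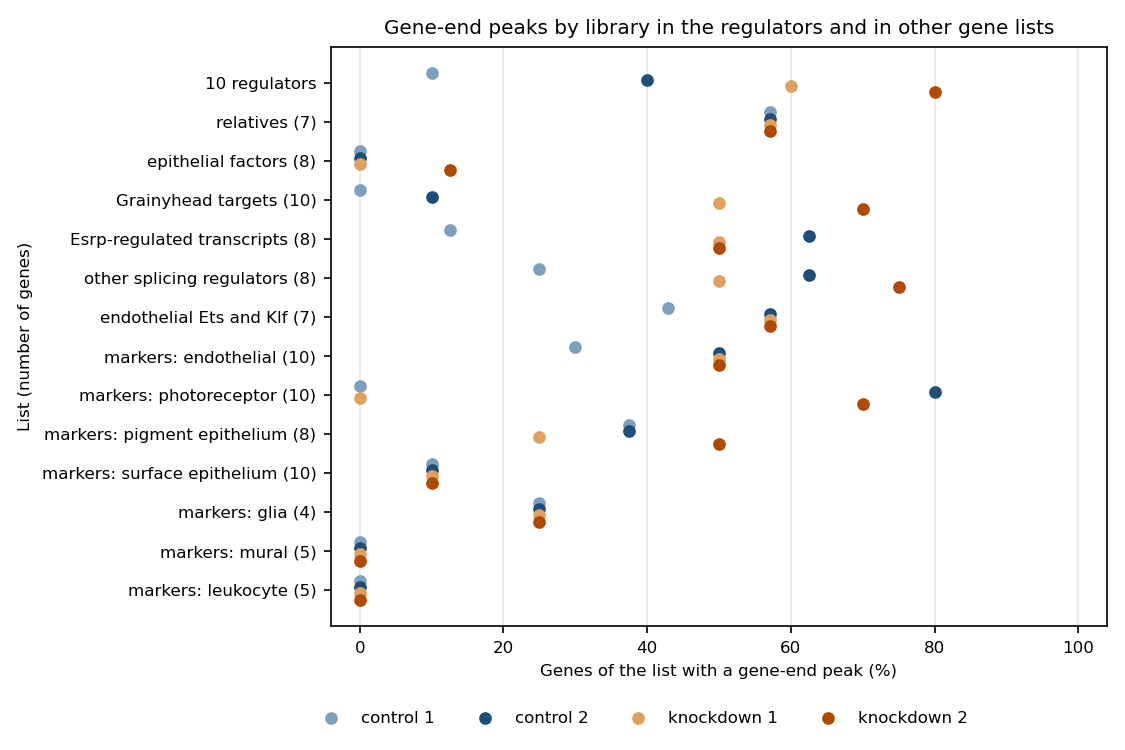
Percent of each list with a gene-end peak (horizontal axis) in each library (coloured points), for the 10 regulators, 6 lists of related genes and 7 lists of cell type markers, with the number of genes in brackets. The regulators and the grainyhead-like targets have both knockdown points to the right of both control points, while photoreceptor markers separate the libraries by replicate number. All protein-coding genes, not drawn here, had the same order of groups: 22.0% and 38.5% in controls 1 and 2, 39.5% and 45.2% in knockdown 1 and 2.

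The E2-box was also counted over all promoters by their peak pattern. It was present in 27.5% of the 942 promoters that peaks of both knockdown libraries and of neither control overlapped, in 11.9% of the 4496 overlapped in all 4 libraries and in 21.8% of the 21666 overlapped in none. These shares are descriptions and were not tested. The Elf3 promoter, with 1 E2-box, had peaks in control 2 and both knockdown libraries. A peak of knockdown 2 alone overlapped the Grhl3 promoter, with its 2 E2-boxes. Of the promoters without an E2-box, the first Grhl1 promoter had a peak in all 4 libraries. The second Grhl1 promoter and that of Ovol2 had none in any. No member promoter was thus among the 942.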

How the data were processed

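ATAC-seq was analysed in 4 libraries, 2 control and 2 Zeb1 knockdown, grouped by their sample titles. The authors deposited 1 list of broad peaks per library on mm10. Deposited with each peak are its fold enrichment (the ratio to background in that library), the −log10 of its p and q, all q values being above 1 on this scale, and a score, 10 times the −log10 q and limited to 1000. The submitters' processing notes name MACS2 2.1.1, bedtools 2.26.0, Bowtie2 2.3.2, Trimmomatic 0.36, SAMtools 1.3 and Picard 2.9.2. Their settings, any shift for the transposase and the filter applied are not given in the sources used here. Depth is unknown, and values were used only to rank or filter peaks within a list.

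Genes came from RefSeq on GRCm38.p6, which gives gene ends without strand, and promoter sequences from a RefSeq table of the same build. Overlaps, merged regions and two-sided exact permutation tests used Python 3.11.15, pandas 2.3.3 and scipy 1.17.1, and the code for overlaps was checked on simulated lists as long as the real ones. No set test was run. Percentiles rank peaks by −log10 q.

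All 10 genes were named, and of the other lists at most 4 genes each, knockdown-only ones first and then those held by all 4 libraries, by rank; other names were chosen after their values were seen. The genes, lists and tests were chosen with earlier results of these data known. Qki was not matched, and 1 listed gene is not reported here. The alternatives tried were equal list lengths, a −log10 q of at least 3, at least 50% of a peak inside the window, gene-end windows of 3 kb, flanks of 0 or 50 kb, peaks at an end of another coding gene left out, a background of genes in the same length range, each library left out, and the replicate number as a block. The count of merged regions was added after seeing the data.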

Additional observations from a re-analysis of the deposited data

How the results depend on the processing

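The difference between the groups kept its direction under every alternative run for it. For some settings this was fixed in advance. Each knockdown library exceeded each control in both counts, so leaving out 1 library could not reverse the direction. For genes with a gene-end peak (mean difference 4.50), it lay between 2 with equal list lengths and 5 with windows of 3 kb or with at least 50% of the peak inside, and between 3 and 6 with 1 library left out. For summed peaks (10.5), it lay between 3 with equal list lengths and 16.5 with flanks of 50 kb, and between 5.50 and 15.5 with 1 library left out. With a replicate block the differences of 4.50 and 10.5 and the knockdown-only counts were the same by construction. The two-sided exact permutation test over the pairs gave p = 0.5 for each difference, the smallest that 2 pairs allow. Whether the replicate numbers pair the libraries is not given in the labels.

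The knockdown-only counts were less stable. At gene ends (2 genes) the count was 0 with equal list lengths, and between 2 and 5 with 1 library left out. It was 3 with at least 50% of the peak inside the window, with Esrp2 added. With a −log10 q of at least 3 it stayed at 2, but for Esrp2 and Elf3 in place of Esrp1 and Grhl2. Over gene body and flanks (1 gene) it was 4 with a −log10 q of at least 3 (Esrp2, Grhl2, Ovol1 and Elf3). Equal list lengths gave 2 (Esrp2 and Ovol1, with Grhl2 lost). With no flanks the count was 4, and with peaks at an end of another gene left out it was 2. It lay between 1 and 5 with 1 library left out. The shares of all genes were not counted under any of these settings, at gene ends or over the wide windows. The count of merged regions (5) was 3 with a −log10 q of at least 3 (at Esrp2, Ovol1 and Elf3, with those of Esrp1 and Grhl2 lost), and 0 with equal list lengths. Leaving out a library leaves fewer lists to pass, and equal lengths remove the weaker peaks of the longer lists. For the other settings the cause was not tested. The knockdown-only peaks of Esrp1 and Grhl2 stood in the weaker part of lists whose depth is unknown, which limits every statement about them.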
